A study of Mus musculus with 48 samples.

Results

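Neuron-like cells were rare in the 10x library of embryonic stem cells induced for 6 days with V580. They were selected on measured values: a barcode, which stands for a cell, was taken when it had at least 200 genes and 1 or more unique molecular identifier (UMI, a counted RNA molecule) of at least 3 of the 4 genes Tubb3, Stmn2, Nefm and Nefl. This rule found 76 of 15412 barcodes, or 0.493% (exact binomial 95% interval 0.389% to 0.617%), and the remaining 15336 served for comparison. The levels of the 4 genes in these cells are therefore a description, and no test is attached to them. When barcodes were clustered without the 4 genes, 47 of the 76 fell into a cluster led by neuronal genes. The other 29 fell into clusters led by other genes, so the label neuron-like fits the rule but not each barcode.

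V580 is vitamin C together with AM580, an agonist of retinoic acid receptor alpha, and was given to female mouse embryonic stem cells labelled C57BL/6 on fibronectin, to make gonadal somatic cell-like cells (GSCLCs) for an ovary reconstruction study. The 10x cells (V580_D6) came from that culture at day 6. Bulk RNA-seq covered V580 at 24 and 48 h with 2 libraries each and at days 4, 6, 8 and 10 with 3 libraries each, untreated controls (Con) at 24 and 48 h with 2 libraries each, and 3 libraries of cells separated from E12.5 female gonads (E12.5_GC). All of these carry the label C57BL/6. Libraries with vitamin C or AM580 alone are not used here. SSEA1-positive cells were removed before GSCLCs were aggregated, but whether this was done before the 10x run is not stated, and the line or clone behind each library is not given in the sources used here.

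Neurons arise when proneural transcription factors such as neurogenins and NeuroD proteins drive progenitors out of the cell cycle, a step at which Notch ligands such as Dll1 and Dll3 are expressed. The newborn neuron then switches on tubulin and neurofilament genes, RNA-binding proteins of the Elavl family and the machinery of transmitter release. Retinoic acid is known as an inducer of neural fate and of Hox genes in differentiating embryonic stem cells, and Hox genes mark hindbrain and spinal cord levels along the body axis. Neurons are not a class of gonadal somatic cell.

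The 4 genes of the rule have separate roles: Tubb3 encodes a neuronal beta-tubulin, Stmn2 a microtubule-destabilising stathmin of growth cones, and Nefm and Nefl the medium and light neurofilament subunits. In the 76 barcodes, Nefm was detected in 73 with 1526 UMIs in all, Nefl in 70 with 741 UMIs, Stmn2 in 70 with 690 UMIs and Tubb3 in 54 with 482 UMIs. In the remaining barcodes, Nefl was detected in 4.11%, Stmn2 in 3.11%, Nefm in 2.73% and Tubb3 in 0.991%. The neuron-like barcodes held 64.4% of all Nefm UMIs of the library and 60.3% of those of Tubb3, but 34.7% of those of Stmn2 and 32.1% of those of Nefl, so most Stmn2 and Nefl RNA lay in cells outside the rule.

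RefSeq promoter windows (250 bases before to 50 after the start, build GRCm38.p6, the build that mm10 names) were found for 17 of the 24 genes formed by the rule and by the largest ratios described below. The windows of 4 of them are shown because these genes carry the description: Sst has the largest ratio, Tubb3 is a rule gene, and Ina and Elavl3 mark the neuronal cytoskeleton and the Elavl family. They lie at chr16:23890795-23891094, minus strand; chr8:123411303-123411602, plus strand; chr19:47014431-47014730, plus strand; and chr9:22051974-22052273, minus strand. Capitals mark the E-box hexamers CAGATG and CAGCTG, searched on both strands, and the palindromic cyclic AMP response element TGACGTCA; these motifs do not overlap in the windows shown.
Sst: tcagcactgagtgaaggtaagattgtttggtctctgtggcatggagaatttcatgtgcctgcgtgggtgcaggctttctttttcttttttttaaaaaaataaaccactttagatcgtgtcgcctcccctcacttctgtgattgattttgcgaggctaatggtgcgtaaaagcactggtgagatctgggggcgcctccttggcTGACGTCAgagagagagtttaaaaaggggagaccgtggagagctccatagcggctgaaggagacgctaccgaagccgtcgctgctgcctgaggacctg
Tubb3: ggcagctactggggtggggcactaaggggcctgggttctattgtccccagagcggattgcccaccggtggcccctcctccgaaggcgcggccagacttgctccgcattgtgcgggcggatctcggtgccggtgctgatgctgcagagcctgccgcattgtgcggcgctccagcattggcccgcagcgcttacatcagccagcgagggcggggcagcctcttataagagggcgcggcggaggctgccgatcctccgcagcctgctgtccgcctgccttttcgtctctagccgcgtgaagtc
Ina: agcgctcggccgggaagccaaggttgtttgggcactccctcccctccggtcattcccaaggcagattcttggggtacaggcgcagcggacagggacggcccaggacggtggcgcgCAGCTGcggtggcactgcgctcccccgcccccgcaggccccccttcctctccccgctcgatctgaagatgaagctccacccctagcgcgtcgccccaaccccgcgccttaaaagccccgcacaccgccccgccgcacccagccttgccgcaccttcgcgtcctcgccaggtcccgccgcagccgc
Elavl3: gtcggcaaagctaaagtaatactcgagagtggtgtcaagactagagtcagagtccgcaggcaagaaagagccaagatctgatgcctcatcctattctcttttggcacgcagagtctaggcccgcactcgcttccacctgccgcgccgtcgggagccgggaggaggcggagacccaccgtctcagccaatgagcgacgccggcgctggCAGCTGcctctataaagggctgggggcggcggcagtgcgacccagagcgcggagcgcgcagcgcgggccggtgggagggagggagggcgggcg
Sst held a TGACGTCA starting at position -48 from the start site, Ina a CAGCTG at position -135 and Elavl3 a CAGCTG at position -43. Tubb3 held none of these letters in its window. Of all 32851 promoter windows, 1.79% held TGACGTCA, 16.3% CAGCTG and 17.2% CAGATG, so a CAGCTG is common, and a match describes the letters only.

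All 76 barcodes come from 1 library, so no test between groups was possible, and the intervals given cover counting error only; cells differ by more than that. The library held 163008244 UMIs, with 885 to 179817 (median 9193) per barcode. The neuron-like barcodes had 899 to 65311 UMIs (median 11402) and a median of 3724.5 genes, against medians of 9175 UMIs and 3044.5 genes in the remaining barcodes. Mitochondrial transcripts took a median of 3.20% of UMIs in the neuron-like and 3.37% in the remaining barcodes. A doublet caller (Scrublet) marked 0 of 15412 barcodes, which at this number of cells means that it did not work, so doublets remain.

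All 4 genes were found in 39 barcodes and exactly 3 in 37. Just outside the rule stood 217 barcodes with 2 genes, 149 of which had the pair Nefm and Nefl. Of the 37 barcodes with 3 genes, 22 lacked Tubb3, 6 lacked Stmn2, 6 lacked Nefl and 3 lacked Nefm. The barcodes with 4 genes had a median of 19 Nefm and 8 Tubb3 UMIs, those with 3 genes medians of 1 and 0, and those with 2 genes also medians of 1 and 0.

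Barcodes were then clustered without the 4 rule genes, which gave 12 clusters. A cluster of 67 barcodes, led by Sst, St18, Uncx, Nhlh2, Cartpt, Lamp5, Dner, Scg3, Neurog1 and Neurod1, held 47 of the 76 neuron-like barcodes, among them 37 of the 39 with all 4 genes. It is called the neuronal cluster here. A cluster of 1199 barcodes, led by Myh11, Actg2, Inhba, Tnc, Acta2, Itga8, Cnn1 and Col1a1, which are smooth muscle and matrix genes, held 17 neuron-like barcodes, none with all 4 genes and 14 without Tubb3. It is called the collagen cluster here, since Col1a1 and Col3a1 were detected in 17 of its 17 neuron-like barcodes. The remaining 12 neuron-like barcodes lay in 6 of the other 10 clusters, 4 of them in a cluster led by Glipr1, Srgn, Cubn, Klb and Ttr, which includes extraembryonic endoderm genes.

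**Figure D1:**
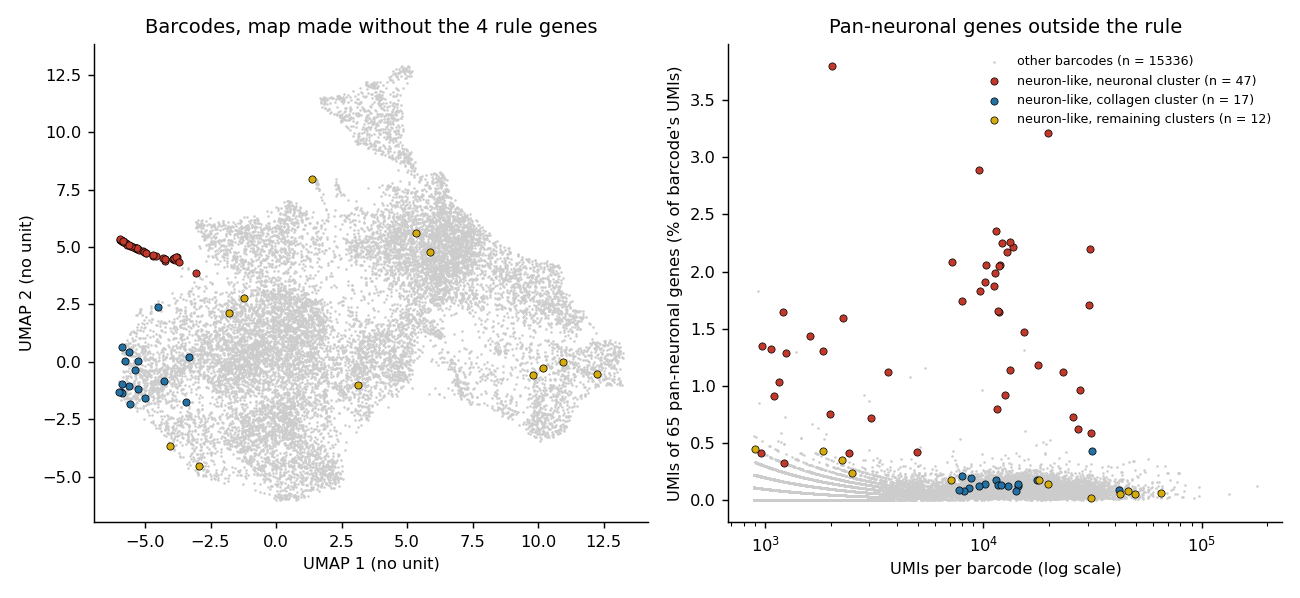
Left, a UMAP map (axes without unit) of 15412 barcodes made without the 4 rule genes; right, the UMIs per barcode (log scale) against the share of a barcode's UMIs (%) that came from 65 pan-neuronal genes outside the rule. Red points are the 47 neuron-like barcodes of the neuronal cluster, blue the 17 of the collagen cluster, yellow the 12 of the remaining clusters and grey the other 15336; red points reach 3.80% on the right, while blue and yellow points stay at or under 0.445%.

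The 3 groups differed in the pan-neuronal genes that the rule did not use, which are 65 genes of the neuronal cytoskeleton, of neuronal RNA-binding proteins and of synaptic vesicles and secretion. These genes took 0.328% to 3.80% of a barcode's UMIs (median 1.47%) in the 47 neuron-like barcodes of the neuronal cluster. They took 0.0847% to 0.431% (median 0.133%) in the 17 of the collagen cluster, and 0.0225% to 0.445% (median 0.160%) in the 12 of the remaining clusters. The lowest, median and highest share in all barcodes outside the rule were 0%, 0.0897% and 1.83%. Of the 47, 43 lay above the highest of the 29 others, and 4 of the 29 lay above the lowest of the 47, so the groups nearly separate but overlap. These genes also shaped the clusters, so this is a description of the clusters and not independent support for them.

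Of the 799 Tubb3 UMIs in the library, 532 lay in the neuronal cluster and 131 in 51 of the 654 barcodes (7.80%) of a cluster led by Serpinb9e, Fthl17a and Rhox9, which held none of the 76. The neuronal cluster's 47 neuron-like barcodes held 460 Tubb3 UMIs (highest in 1 barcode 38, median 8) and 528 Stmn2 UMIs (median 9). The 17 neuron-like barcodes of the collagen cluster held 12 Tubb3 UMIs, 10 of them in 1 barcode, and 120 Stmn2 UMIs (median 5). In all 1199 barcodes of the collagen cluster there were 47 Tubb3 and 528 Stmn2 UMIs. Stmn2 was detected in 10.8% of these barcodes (median 13232 UMIs) and in 0.850% of a cluster led by Cited1 and S100g (median 2538 UMIs). Nefl was detected in 23.6% and Nefm in 13.4% of the barcodes of the cluster with extraembryonic endoderm genes (median 22857 UMIs), but Stmn2 and Tubb3 each in 1.62% of them. Thus the 4 genes did not keep a constant ratio to each other across clusters.

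To compare detection at equal depth, barcodes were thinned to 3000 UMIs each, which left out 18 neuron-like and 5153 other barcodes. The groups themselves were still those formed at full depth. Ina, an intermediate filament gene of neurons, was then detected in 29 of 33 neuron-like barcodes of the neuronal cluster (87.9%, interval 71.8% to 96.6%), in 0 of 17 of the collagen cluster (upper limit 19.5%) and in 0.147% of 10183 others. Without thinning it was detected in 0.554% of all 15336 others. Tubb3 was detected in 30 of these 33 (90.9%), in 1 of the 17 and in 0.393% of the others. Stmn2 was detected in 26 of the 33 (78.8%), in 10 of the 17 (58.8%) and in 1.70% of the others. Tubb3 and Stmn2 are rule genes, so the rule itself favours their detection in neuron-like barcodes. Ina is not a rule gene, but it was not taken out before the clustering that split these barcodes. Its counts therefore describe the groups and are not independent support for them. After thinning, 30 barcodes still met the rule, and 27 of these lay in the neuronal cluster.

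Across all genes with at least 100 UMIs, 3.99% of 14110 were at least 4-fold higher in the 76 neuron-like than in the remaining barcodes, in CPM, the UMIs of a gene summed over a group of barcodes and scaled to the group's total. At least 4-fold lower were 0.142%, or 20 genes, a count that was 57 without barcodes above 40000 UMIs, 104 with all 4 rule genes, 139 for the neuronal cluster's 47 and 155 with equal weight for each barcode. Groups with fewer than 3 UMIs of a gene were set to 3 UMIs, which is 2.90 CPM over the 76 barcodes. A gene can thus be called 4-fold lower only if its level in the remaining barcodes is at least 4 times this floor. Genes below that level were tested but could not be called lower. The median gene had a ratio of 1.12 with this floor and 1.04 without it. The rule used these same barcodes, so the shares are read as a background for the lists only. The 100 UMIs include those of the neuron-like barcodes, so a gene high only there can pass. This favours higher calls in this share, in the list counts and in the largest ratios below. The 20 largest ratios also needed 30 UMIs in the neuron-like barcodes.

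The largest ratio was that of Sst, which encodes the peptide somatostatin. It reached 544.3 CPM in the neuron-like and 0.191 CPM in the remaining barcodes (ratio 2844, interval 1981 to 4226). It was found in 20 of the 76, all in the neuronal cluster, and 199 of its 564 UMIs in the 76 lay in 1 barcode. Cartpt, the precursor of the CART peptide, followed with 264.4 CPM against 0.185 CPM (ratio 1428) in 19 of the 76. The next were the filament gene Ina with a ratio of 766 in 38 barcodes, the stathmin Stmn3 with 722 in 37 and the homeobox gene Uncx with 604 in 24. The dense-core vesicle priming gene Cadps (480), the nicotinic receptor subunit Chrna3 (455) and D930028M14Rik (425) came next, then the LIM homeobox gene Lhx1 (407) and the basic helix-loop-helix gene Nhlh2 (405). The secretory granule gene Chgb had a ratio of 389, the host of the neuronal microRNA miR-124, Mir124-2hg, 348, the collapsin response gene Crmp1 322 and Soga3 293. Neurod1 (251), Nxph4 (246), Elavl3 (227), Igfbpl1 (227), Apba2 (199.9) and the netrin receptor gene Dcc (183) complete the 20 largest. None of these 20 genes had a UMI in the 17 neuron-like barcodes of the collagen cluster. The ranking favours genes that are rare elsewhere, such as Ina, detected in 0.554% of the remaining barcodes, and Elavl3, in 0.606%. They were also not taken out before the clustering, so their lack in 17 barcodes is a description only.

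The smallest ratios among genes with at least 1000 UMIs were those of Kank1 (0.122), Hpgd (0.161), Rhox9 (0.162), Stard8 (0.174) and Fthl17a. Kank1 and Stard8 each rest on 3 UMIs in the 76 barcodes, with intervals of 0.0251 to 0.356 and 0.0359 to 0.509. Hpgd, which degrades prostaglandins, had 6.76 CPM in the neuron-like and 41.9 CPM in the remaining barcodes. Rhox9, a reproductive homeobox gene, had 14.5 against 89.1 CPM, and Fthl17a had 1 UMI against 2563 (interval of the ratio 0.00154 to 0.340).

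Of the 65 pan-neuronal genes outside the rule, 52 had at least 100 UMIs, and 44 of these were at least 4-fold higher in the neuron-like barcodes and 0 lower. Their median ratio was 15.2, against 1.04 for all genes. A gene could reach 100 UMIs through the neuron-like barcodes alone, so the list count leans towards higher calls. The floor also kept genes of low level from being called lower. In the neuronal cytoskeleton list, 21 of 23 were higher. Beside Ina, Stmn3 and Crmp1 these were led by Tagln3 (ratio 120), Dcx, a microtubule gene of migrating neurons (114), Rtn1 (100.5) and Map2, a dendritic microtubule gene (99.5). The smallest ratios were those of Basp1 (2.88), the peripheral neuron filament gene Prph (3.97) and Tubb2a (7.26).

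Of the neuronal RNA-binding proteins, 8 of 10 were higher. They were led by Elavl3 and Elavl4 (116), which stabilise neuronal messages, followed by the splicing regulators Srrm4 (33.9), Nova1 (26.9) and Nova2 (19.5). The splicing factors Ptbp2 (1.11) and Rbfox2 (2.19) were not. Of the genes of synaptic vesicles and secretion, 15 of 19 were higher, led by Chgb, the calcium sensor Syt1 (61.5), synaptophysin Syp (49.6), Nsg2 (36.4) and Gng3 (30.2). Sv2a (1.00), Vamp2 (1.85) and the syntaxin Stx1a (2.52) were not.

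**Figure D2:**
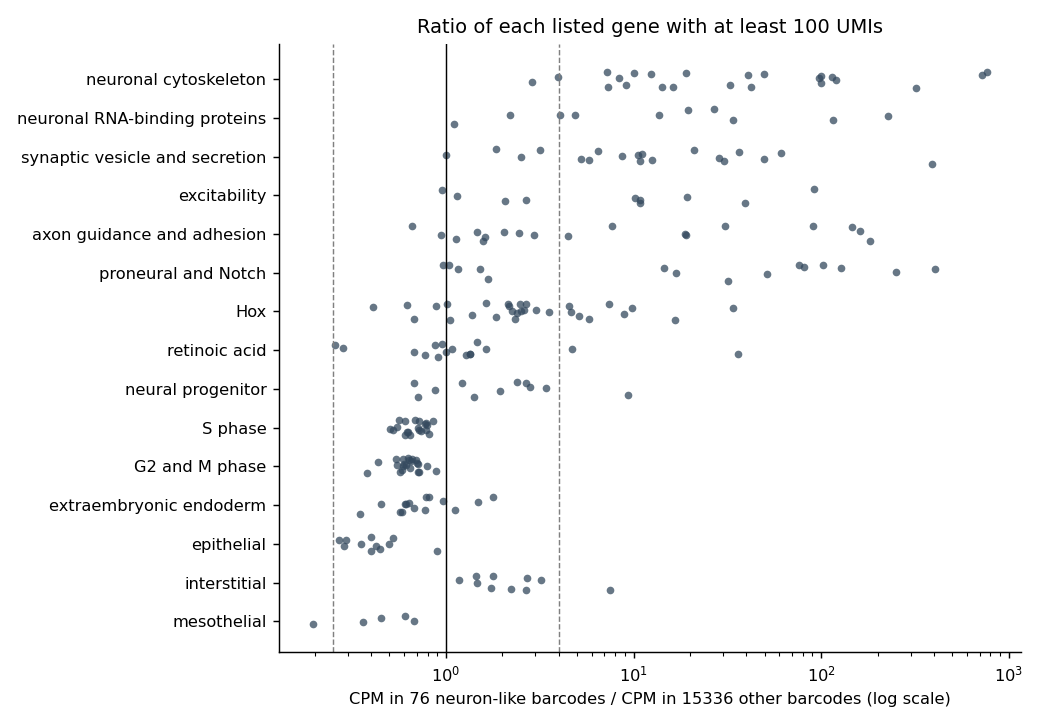
Ratio of CPM in the 76 neuron-like barcodes to CPM in the 15336 other barcodes (log scale) for each gene of 15 lists with at least 100 UMIs in the library and 1 or more in the neuron-like barcodes; each point is a gene, the solid line marks equal levels and the dashed lines 4-fold. The neuronal cytoskeleton genes lie between 2.88 and 766, while the S phase and the G2 and M phase genes all lie to the left of equal levels.

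Genes of excitability were fewer. Of 18 listed, 10 had at least 100 UMIs and 6 were higher, among them the sodium channel subunits Scn3a (91.6), Scn3b (39.1) and Scn8a (10.2), Cacna2d2 (10.9) and the axon initial segment anchor Ank3 (10.8). The calcium channel gene Cacna1a (0.953) was near equal. Of the axon guidance and adhesion genes, 9 of 18 were higher. They were led by Dcc, Robo3, a receptor of commissural axons (161), Cntn2 (146), L1cam (90.3) and Epha5 (30.8). The guidance genes Sema3a (0.663), Epha7 (0.939) and Nrp1 (1.13) were not.

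Proneural and Notch genes were high in the neuronal cluster. Its leading genes include St18, Nhlh2, Neurog1 and Neurod1 of this list, so the level there describes the cluster and is not independent support. Of 31 listed, 15 had at least 100 UMIs and 10 were higher, with a median ratio of 31.9. After Nhlh2 and Neurod1 came Neurog1 (128), Ebf1 (102) and Onecut2 (80.7). The Notch ligand Dll3 had a ratio of 51.7 and Dll1 14.5. Btg2 (0.958), Notch1 (1.04) and Jag2 (1.16) were near equal. Summed over the list, proneural and Notch genes took 24.2 of 10000 UMIs in the 47 neuron-like barcodes of the neuronal cluster, 1.44 in the 17 of the collagen cluster and 1.72 in all other barcodes. Neural progenitor genes were not higher as a list, with 1 of 12 (Pax3, 9.38, from 6 UMIs). The progenitor factor Sox2 had 20 UMIs in 3 of the 76 barcodes, 17 of these UMIs in 1 of them.

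Of 20 S phase genes and 22 G2 and M phase genes, 0 passed 4-fold in either direction, and the median ratios were 0.697 and 0.631. The lists took 6.74 and 10.1 of 10000 UMIs in the neuron-like barcodes of the neuronal cluster, against 15.5 and 29.0 in the remaining barcodes. In the 17 neuron-like barcodes of the collagen cluster they took 10.9 and 9.40, so a low level was not particular to the neuronal cluster. In the 20 barcodes of the neuronal cluster outside the rule they took 12.8 and 61.6. The low G2 and M phase level thus held for the cluster's neuron-like barcodes and not for the whole cluster. At 3000 UMIs, the proliferation gene Mki67 was detected in 2 of 33 neuron-like barcodes of the neuronal cluster (6.06%, interval 0.743% to 20.2%). It was detected in 1 of 17 of the collagen cluster (5.88%) and in 26.9% of the 10183 others. Without thinning it was detected in 35.6% of all 15336 others. The 12 neuron-like barcodes of the remaining clusters had 16.9 of 10000 UMIs of the S phase and 39.9 of the G2 and M phase list, both above the other barcodes.

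**Figure D3:**
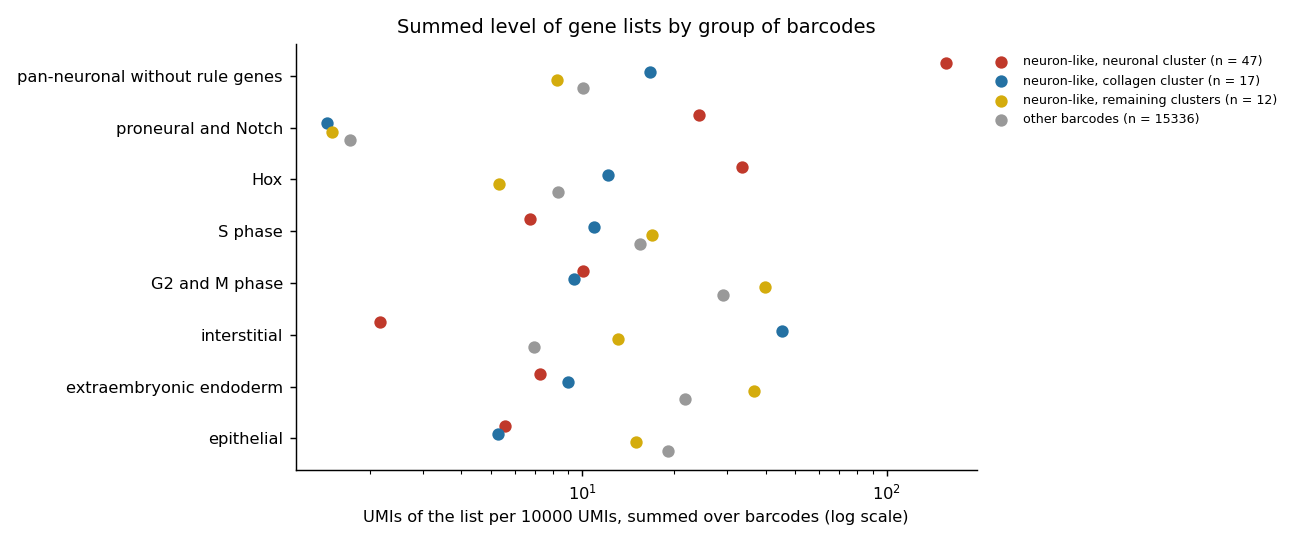
UMIs of 8 gene lists per 10000 UMIs (log scale), summed over the barcodes of a group, for the 47 neuron-like barcodes of the neuronal cluster (red), the 17 of the collagen cluster (blue), the 12 of the remaining clusters (yellow) and the 15336 other barcodes (grey). Red stands at 156.4 for the 65 pan-neuronal genes, where blue stands at 16.7, while blue leads in the interstitial list with 45.4 against 2.17 for red.

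Markers of other cell classes differed in level between the 3 groups, which were themselves made by clustering on such genes. The interstitial list (10 of 10 genes detected) took 17.01 to 94.5 of 10000 UMIs per barcode in the 17 neuron-like barcodes of the collagen cluster and 0 to 24.7 in the 47 of the neuronal cluster, so the ranges overlap. Over all 76 barcodes, 1 of its 10 genes, the matrix gene Lum, was at least 4-fold higher (ratio 7.50). Of the 83 Lum UMIs in the 76, 70 lay in the collagen cluster. The extraembryonic endoderm list took 7.23 of 10000 UMIs in the neuronal cluster's 47, 36.7 in the 12 of the remaining clusters and 21.8 in all other barcodes, and its ranges per barcode overlapped between the groups. Of the epithelial genes 0 of 11 passed 4-fold, with Epcam at 63.7 against 180.5 CPM and Krt18 at 279.9 against 660.2 CPM. Among mesothelial genes, Upk3b passed 4-fold (ratio 0.195). Of the 12 neuron-like barcodes of the remaining clusters, 4 had over 40000 UMIs, as had 1 of the collagen cluster. Of the pan-neuronal genes, rule genes included, 48 of 56 were at least 4-fold higher in all barcodes, and 49 of 55 after the 5 neuron-like and 229 other barcodes above 40000 UMIs were left out. The rule genes are high by selection. Without them, 44 of 52 were higher in all barcodes.

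The remaining lists of other classes gave few genes past 4-fold. Of the granulosa genes 0 of 6 and of the muscle genes 0 of 6 passed 4-fold in either direction. The only blood gene with enough UMIs was not 4-fold higher, and the floor left no room for a lower call of it. Pecam1 was the only endothelial gene at least 4-fold higher, from 4 UMIs. The pluripotency list took 4.86 of 10000 UMIs in the 76 and 1.15 in the others. Dppa5a (ratio 7.37) and Nanog (5.39) were at least 4-fold higher. Of their UMIs in the 76, however, 410 of 435 for Dppa5a and 9 of 10 for Nanog lay in 1 barcode. In the germ cell list 1 of 5 was higher (Dppa3, 12.1). Of that list's 44 UMIs in the 76 barcodes, 30 lay in the remaining clusters and 4 in the neuronal cluster. In the neural crest and glia list, Tfap2a (22.7) was higher. The glial genes Sox10, S100b, Gfap and Olig1 had 0 UMIs in the 76 barcodes, where 3 counts of the total would be 3.95% of cells with a UMI, but only 4 to 11 in the whole library, so a difference was not detectable at this depth.

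Of 39 Hox genes, 30 had at least 100 UMIs, and 9 of these were higher in the neuron-like barcodes. Hoxb9 led with 249.0 CPM (interval 219.5 to 281.3) against 7.35 CPM (ratio 33.9), followed by Hoxb8 (16.6), Hoxb6 (9.85), Hoxd3 (8.86) and Hoxa10 (7.41), then Hoxb5 (5.77), Hoxa7 (5.14), Hoxa6 (4.63) and Hoxa9 (4.54). Hoxc5 (0.409), Hoxa4 (0.620) and Hoxd1 (0.672) had the smallest ratios. Of the 258 Hoxb9 UMIs in the 76 barcodes, 246 lay in the neuronal cluster, in 31 of the 47 barcodes. The UMIs of the remaining barcodes, at 7.35 CPM, are not in this count. Otx2, Six3, Dlx1, Dlx2, Dlx5, Emx1, Tbr1 and Nkx2-1, which mark forebrain or midbrain, had 0 UMIs in the 76 barcodes, but they had only 1 (Otx2) to 66 (Nkx2-1) UMIs in the whole library, so a difference was not detectable at this depth. The whole forebrain and midbrain list had 16 UMIs in 14 of the 76 barcodes. Of its 16 genes 2 had at least 100 UMIs, and Emx2 was at least 4-fold lower (ratio 0.218). Lmx1a had 0 UMIs in the 76 barcodes and 586 in the others, too few for a lower call with the floor. The lower level of Emx2 alone does not speak for the list.

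Retinoic acid genes were mixed. Of 17 with at least 100 UMIs, 2 were higher: Crabp1, a cellular retinoic acid binding protein, with 678.5 CPM (interval 629.2 to 730.5) against 18.9 CPM (ratio 35.9), and Crabp2 (4.70). Crabp1 had 687 of its 703 UMIs in the neuronal cluster, in 37 of the 47 barcodes. The receptors Rara (1.34) and Rarb (1.27) and the degrading enzyme Cyp26a1 (0.872) were near equal. The synthesising enzymes Aldh1a1 (0.255, interval 0.0526 to 0.747, from 3 UMIs) and Aldh1a2 (0.284) had the smallest ratios of the list, and both stayed inside 4-fold.

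Transcription factors of several neuronal types were present in the 47 neuron-like barcodes of the neuronal cluster, each in part of them. Of the interneuron factors, Lhx1 was detected in 25, Lhx5 in 18, Pax2 in 11 and Lbx1 in 10. Of the factors of sensory and motor neurons, Pou4f1 was found in 13, Tlx3 in 12 and Isl1 in 10. Several of these genes have fewer than 100 UMIs in the library and so took no part in the counts of 4-fold genes; they were chosen for description after their values were seen. By list, 2 of 10 interneuron factors (Lhx1 and Pax2, 41.3), 4 of 8 motor neuron genes (Ret 72.0, Isl1 30.6, Phox2a 15.7, Pou3f1 9.66) and 4 of 7 sensory neuron genes (among them Pou4f1 78.2, Ntrk2 5.94, Sncg 5.41) were at least 4-fold higher.

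These genes were found together to unequal extents. Of the 18 barcodes with Lhx5, 17 had Lhx1, and of the 11 with Pax2, 10 had Lhx1. Sst and Cartpt were found together in 15 barcodes, of 20 with Sst and 19 with Cartpt. Sst and Lhx1 were also found together in 15. Isl1 and Lhx1 shared 4 of the 10 barcodes with Isl1, and Isl1 and Sst 3. Barcodes were not thinned for these counts, which describe what was seen together and do not separate types.

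Transmitter genes were sparse. The vesicular transporter of GABA and glycine, Slc32a1, had 29 of its 32 UMIs in 10 of the 47 barcodes, and the glycine transporter Slc6a5 9 of 11 UMIs in 8 of them. All 10 barcodes with Slc32a1 had Lhx1, 9 had Sst and 7 had Slc6a5. The glutamate transporter gene Slc17a6 was found in 2 barcodes with 3 UMIs and Slc17a7 in 5. The vesicular acetylcholine transporter gene Slc18a3 was found in 9 and Chat in 3, while Th, the first enzyme of catecholamine synthesis, was found in 10 and Dbh in 1. Among genes with at least 100 UMIs, Chrna3 and Chrna4 (31.8) of the acetylcholine list, Gria2 (9.76) and Grik2 (8.37) of the glutamate list and Slc18a2 (16.7) of the monoamine list were at least 4-fold higher. In the peptide list Sst, Cartpt and Nrn1 (16.3) passed, and Cck (0.299), Bdnf (0.624) and Gal, with 2 UMIs, did not.

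**Figure D4:**
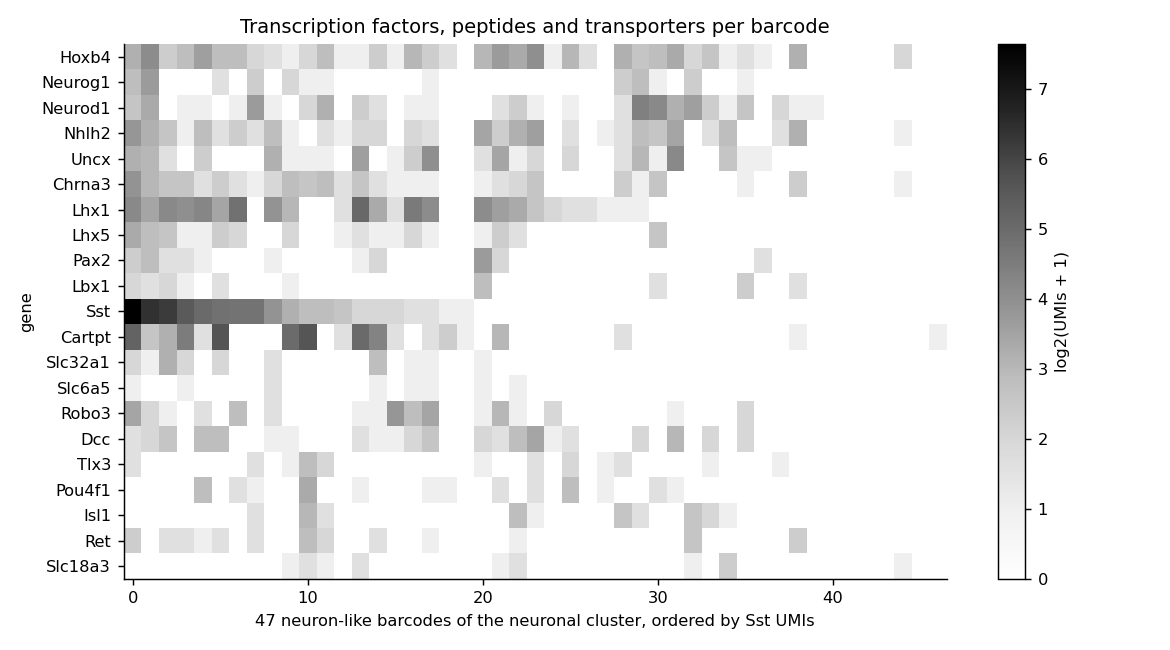
UMIs of 21 genes, as log2(UMIs + 1) in grey, in each of the 47 neuron-like barcodes of the neuronal cluster (columns, ordered by Sst UMIs). Sst fills the first 20 columns, and Hoxb4 is spread over 37 of the 47.

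Bulk libraries, which the rule did not use, gave the level of 3 of the 4 rule genes over time; Nefl and 15 of the 20 genes with the largest ratios are not in the table used here. Levels are FPKM, and fewer cells of a type and less RNA per cell cannot be told apart in bulk. Tubb3 stood at 2.05, 2.08 and 2.30 FPKM at day 4, at 5.92, 6.48 and 6.33 at day 6, at 5.20, 3.95 and 4.62 at day 8 and at 1.25, 1.57 and 1.52 at day 10. The day 6 libraries lay above those of day 4 and day 10 without overlap. Tubb3 was higher at day 6 than at day 4 by 1.21 (SE 0.30) on the log2(FPKM + 1) scale (limma, adjusted p = 0.00456) and lower at day 10 than at day 6, with a log2 difference of -1.57 (SE 0.30, limma, adjusted p = 0.000458).

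Nefm stood at 0.182, 0.147 and 0.216 FPKM at day 4 and at 1.76, 2.18 and 2.11 at day 6. It was higher at day 6, with a log2 difference of 1.35 (SE 0.213, limma, adjusted p = 0.000124). At day 10 it stood at 1.70, 1.86 and 2.05 FPKM, and the difference from day 6 did not pass the test (log2 difference -0.07, SE 0.213, limma, adjusted p = 0.798).

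Stmn2 followed another course. It stood at 0.251, 0.346 and 0.439 FPKM at day 4, at 0.666, 0.779 and 0.793 at day 6, at 3.04, 2.52 and 2.69 at day 8 and at 6.41, 5.62 and 6.28 at day 10. It was higher at day 10 than at day 6 by 2.02 (SE 0.105, limma, adjusted p = 9.56e-10) on the log2 scale, while Tubb3 fell between the same days. The day 4 and day 6 libraries did not overlap, with means of 0.346 and 0.746 FPKM. The log2 difference of 0.38 (SE 0.105, limma, adjusted p = 0.00939) was under 2-fold on the log2(FPKM + 1) scale, which understates changes of values below 1, so it was not called.

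**Figure D5:**
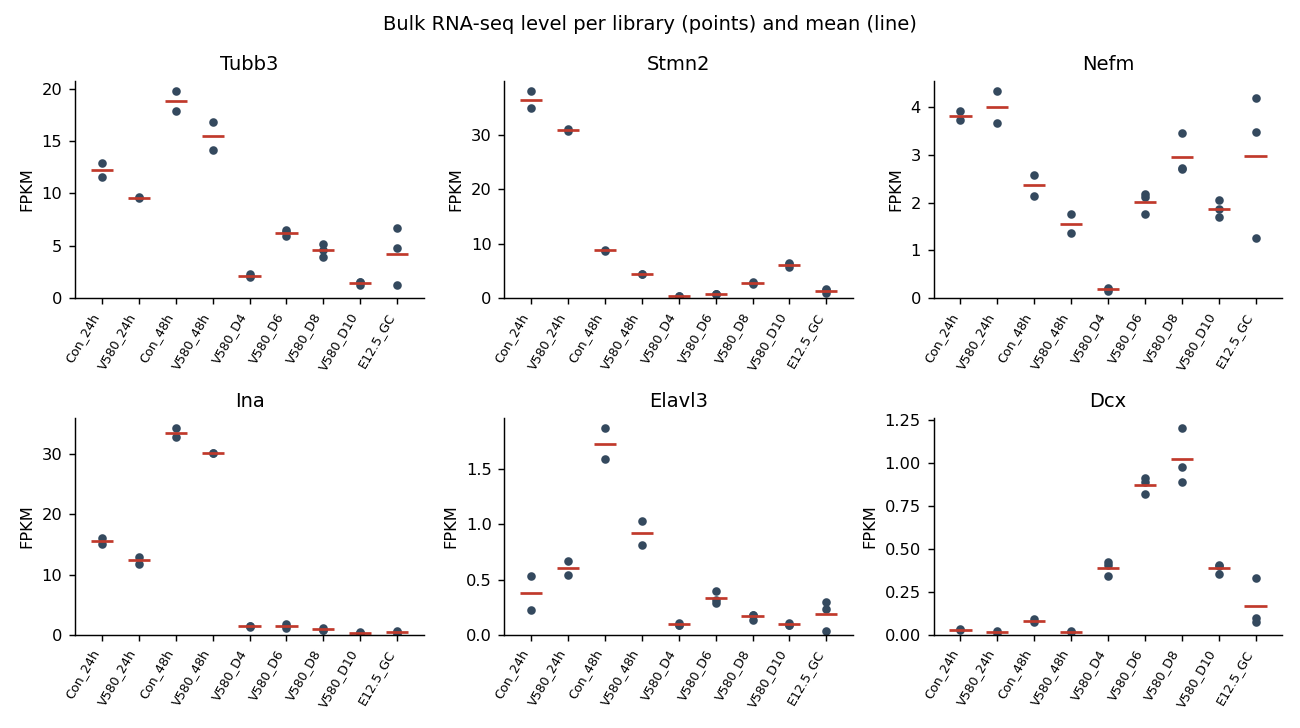
FPKM of 6 neuronal genes in bulk libraries (points, 2 per group at 24 and 48 h and 3 per group otherwise), with the mean of each group as a line. Tubb3 has a mean of 18.8 in untreated cells at 48 h, 6.24 at day 6 of V580 and 1.45 at day 10, whereas Stmn2 goes from 0.746 at day 6 to 6.10 at day 10.

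Tubb3, Ina and Stmn2 had their highest levels in the early cultures, with and without V580. At 24 h Stmn2 stood at 34.99 and 38.1 FPKM in untreated cells and at 30.8 and 31.2 FPKM with V580. In untreated cells at 48 h Tubb3 stood at 19.8 and 17.9 FPKM, Ina at 32.9 and 34.4 FPKM and Stmn2 at 8.92 and 8.73 FPKM. With V580 at 48 h, Tubb3 stood at 14.1 and 16.8 FPKM, Ina at 30.2 and 30.2 FPKM and Stmn2 at 4.51 and 4.43 FPKM. At day 6 Ina stood at 1.07, 1.74 and 1.47 FPKM. There were no untreated libraries after 48 h in the table, so V580 and time cannot be told apart at day 6.

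Of the 69 pan-neuronal genes including the rule genes, 55 are in the bulk table and 36 passed the filter of 1 FPKM in at least 3 of 15 libraries. From day 4 to day 6, 4 of the 36 rose (Nefm, Nsg1, Sv2a and Tubb3) and 2 fell (Gng3 and Prph), against 3.41% and 1.67% of 11512 genes. On the log2 scale their median difference was 0.11, against -0.01 for all genes. From day 6 to day 10, 5 rose (among them Celf4, Prph, Rab3a and Stmn2) and 7 fell (Crmp1, Dpysl4, Gng3, Ptbp2, Tubb2b, Tubb3 and Uchl1), against 5.32% and 1.50% of all genes, with a median of -0.28 against -0.02. The first of these comparisons shares its day 6 libraries with both others.

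Against E12.5_GC, 3 of the 36 were higher at day 6 (Basp1, Celf5 and Prph) and 4 lower (among them Cplx2, Dclk1 and Nsg1), against 7.06% and 8.11% of all genes. With a pseudocount of 0.1 in place of 1 these counts were 11 higher and 6 lower. Tubb3 stood at 4.76, 6.64 and 1.20 FPKM in E12.5_GC, a range that holds all 3 day 6 values, and its difference did not pass (log2 difference 0.66, SE 0.30, limma, adjusted p = 0.0669). Nefm stood at 4.18, 3.48 and 1.25 FPKM there, and its difference did not pass either (log2 difference -0.31, limma, adjusted p = 0.207). The third E12.5_GC library had the lowest Tubb3, Stmn2, Nefm and Ina of that group.

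Several genes that moved in bulk had most of their UMIs outside the neuron-like barcodes at day 6. In the 10x library the 76 barcodes held 0.639% of the Sv2a, 2.48% of the Prph, 2.54% of the Celf4, 3.98% of the Nsg1 and 7.36% of the Tubb2b UMIs. Of the rule genes called in bulk, they held 482 of 799 Tubb3, 1526 of 2371 Nefm and 690 of 1986 Stmn2 UMIs. They held 83.1% of the Ina, 67.3% of the Crmp1 and 59.2% of the Elavl3 UMIs. Ina was not called in any of the bulk comparisons, and Elavl3 was not tested in them. Whether the bulk cultures held the same share of these cells was not tested.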

How the data were processed

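The deposited 10x table holds UMI counts per Ensembl gene and barcode, made by the authors with Cell Ranger on mm10; the deposited bulk table holds FPKM, a gene-length and depth normalised level made by the authors on mm10, and their read depth is unknown. The labels give 1 10x sample, while the methods speak of triplicates. Members and lists were chosen with earlier results of these data known. Groups follow the submitters' labels.

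Barcodes with at least 200 genes were kept (all 15412). Ensembl identifiers were turned into symbols with the reference gene table (32158 of 32285 matched). Scrublet marked 0 barcodes and no doublets were removed. CPM was summed over barcodes, with a floor of 3 UMIs, and compared by ratio for genes with at least 100 UMIs; intervals are exact Poisson or binomial at 95% and cover counting error only. Clustering used scanpy 1.11.5 without the rule genes (2000 variable genes, 20 components, 20 neighbours, Leiden 0.5, seed 0). Bulk levels were tested with limma 3.58.1 (trend) on log2(FPKM + 1), 15 libraries of 5 groups, Benjamini-Hochberg adjustment over 11512 genes, called below 0.05 and from 2-fold. On this scale the change of low genes is understated. Nothing says that bulk replicates were separate cultures, so p-values measure the spread between these libraries, which may be technical. Steps were tested on simulated data. Of the bulk columns, 8 could not be tied to a sample and were not used.

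Named genes were the 4 rule genes, the 20 largest ratios among genes with at least 100 UMIs (30 in the neuron-like barcodes), the 5 smallest among genes with at least 1000 UMIs, up to 5 largest and 3 smallest of each list with defining genes near 0, and those found in the bulk table. Some genes that these rules name are not reported here.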

Additional observations from a re-analysis of the deposited data

Results flagged for a closer look

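Of 58 named genes in the bulk table, 4 had both V580 libraries on one side of both untreated libraries at 24 h and on the opposite side at 48 h; with 2 libraries a group the difference between the times was not tested. The mean with V580 minus the mean without was -0.565 FPKM at 24 h and 0.144 FPKM at 48 h for Dpysl4, and 0.226 and -0.813 FPKM for Elavl3. It was -0.174 and 0.929 FPKM for Rtn1 and -0.0148 and 0.0234 FPKM for Syn2. No group had 4 or more libraries, so no library was tested as standing apart.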

How the results depend on the processing

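In the 10x library, the share of neuron-like barcodes was 0.253% with all 4 rule genes, 0.293% after thinning to 3000 UMIs and 0.305% for the barcodes of the neuronal cluster. The genes at least 4-fold higher numbered 356 of 11206 after thinning and 96 of 9876 among genes with at least 1000 UMIs, against 563 of 14110. The pan-neuronal genes among them numbered 30 of 38 and 16 of 22, against 48 of 56, with fewer genes tested. These counts include the rule genes that had enough UMIs, which are high by selection. Genes at least 4-fold lower numbered 104 with all 4 rule genes, 155 with each barcode given equal weight, 57 without barcodes above 40000 UMIs and 139 for the neuronal cluster, against 20. The Scrublet alternative removed no barcode and was not run. At Leiden resolution 1, a cluster of 75 barcodes held 49 neuron-like barcodes, among them the 47 described. The limits on UMIs and genes of 40000 and 1000, the neuronal cluster and resolution 1 were chosen after seeing the data.

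In bulk, a pseudocount of 0.1 gave 7 rising and 4 falling pan-neuronal genes from day 4 to day 6, 11 falling from day 6 to day 10 and 11 higher and 6 lower than in E12.5_GC. Leaving out each library gave 4 to 4 rising and 2 to 3 falling, then 4 to 5 rising and 7 to 7 falling, and 3 to 4 higher and 3 to 5 lower than E12.5_GC. With the replicate number as a block, the counts were 4 and 2, 5 and 7, and 3 and 4; within the 3 comparisons same-numbered libraries correlated by -0.0740 to 0.0666, so there the samples share only a number. Among groups not compared, same-numbered V580_D4 and E12.5_GC libraries correlated by 0.115 to 0.345 and V580_D10 and E12.5_GC by -0.431 to 0.0856. Of all alternatives, 78 stayed within 1.5 times or the interval and 15 moved. With 76 barcodes, a gene with 100 UMIs in the library is expected at under 1 UMI in them, so the depth limits calls of low genes.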

Other observations

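The neuronal cluster held 20 barcodes outside the rule, with 928 to 18079 UMIs (median 4407). Among them Tubb3 was detected in 11, Nefm in 4, Stmn2 in 3 and Nefl in 1. The G2 and M phase list took a median of 13.3 of 10000 UMIs per barcode in them (up to 232.6). In the 47 neuron-like barcodes of the cluster the median was 3.26 (up to 78.8). Summed over barcodes, the list took 61.6 in the 20, 10.1 in the 47 and 29.0 in all barcodes outside the rule. Proneural and Notch genes took a median of 33.1 of 10000 UMIs per barcode in these 20, against 21.4 in the 47, and the 65 pan-neuronal genes a median of 0.700% of UMIs, against 1.47%. The ranges of both lists overlap between the groups.

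Of the 15316 barcodes outside both the rule and the neuronal cluster, 124 had a pan-neuronal share above the lowest neuron-like barcode of that cluster, and 0 had a share above its median. A neuron-like barcode with all 4 rule genes in another cluster had 49348 UMIs, 17 Sox2 and 7 Pou5f1 UMIs, with 2 Tubb3, 5 Stmn2, 1 Nefm and 1 Nefl UMIs.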
